A study of Homo sapiens with 6 samples.

Results

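The 52 genes described here encode the machinery of DNA repair: homologous recombination (13 genes), the Fanconi anemia pathway (10), end joining (5), single-strand break repair (4), nucleotide excision repair (10), mismatch repair (4) and the kinases and mediators of the damage response (6). They were chosen by name from textbook pathway membership, and all 52 had a row in the deposited expression table of 12829 genes. RNA was measured in HaCaT cells, an immortal, aneuploid human skin keratinocyte line. The 3 control libraries came from HaCaT cells labelled as a normal control, genotype WT, and the 3 knockdown libraries from cells with a short hairpin RNA against IQGAP2 (shIQGAP2), a scaffold protein of the actin cytoskeleton. Per the labels each library is a biological replicate. They leave unsaid whether the controls carried a hairpin, how many knockdown clones there were or how long after the knockdown RNA was taken.

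DNA breaks are mended by different routes. Homologous recombination copies the sister chromatid and works in S and G2 phase, whereas end joining ligates the broken ends directly at any time in the cell cycle. The Fanconi proteins unhook crosslinks between the DNA strands, nucleotide excision repair cuts out bulky lesions such as the ultraviolet photoproducts that skin keratinocytes meet daily, and mismatch repair corrects replication errors. ATM and ATR are the kinases that sense damage and signal to the checkpoint kinases CHEK2 and CHEK1.

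The reads behind the table summed to between 12901037 and 15360759 per library. A repair gene was counted by 43 (RAD50, control replicate 1) to 8680 reads (XRCC6, control replicate 1) per library, and 50 of the 52 had at least 100 reads in every library. Values are FPKM, fragments scaled to transcript length and sequencing depth, and are given in the order of replicates 1, 2 and 3. IQGAP2 was at 0.200, 0.198 and 0.190 FPKM in control and at 0.0196, 0.0328 and 0.0182 FPKM in knockdown, which is 21 to 24 reads per control library and 2 to 4 reads per knockdown library. The groups did not overlap, the log2(FPKM + 1) change was -0.22 (SE 0.072, limma adjusted p = 0.0217), and p was 0.1 by exact permutation (two-sided), as low as 3 against 3 libraries can go. The limma call for IQGAP2 was lost without any 1 control library (adjusted p 0.0519 to 0.0541) and without knockdown replicate 3 (adjusted p = 0.0556). Knockdown replicate 2 stood apart: the chi-square of its reads per degree of freedom was 11.27 against knockdown replicate 1 and 10.49 against replicate 3, while the other pairs within a group gave 2.10 to 2.49. All 10 keratinocyte markers were in the table, with a summed level of 6108 to 6192 FPKM in control and 6327 to 6892 FPKM in knockdown. Of these markers 7 were higher and 3 did not pass (ITGB4, SFN and KRT14). The largest rises, picked after their values were seen, were those of COL17A1 (2.09-fold, log2 change 1.05, adjusted p = 4.64e-07), ITGA6 (1.86-fold, 0.88, adjusted p = 4.86e-06) and DSP (1.85-fold, 0.87, adjusted p = 2.75e-06), proteins of hemidesmosomes and desmosomes. KRT5 averaged 1149 FPKM in control and 1483 FPKM in knockdown (log2 change 0.37, adjusted p = 6.16e-04), TP63 averaged 101 and 114 FPKM (0.17, adjusted p = 0.00978), and KRT14 averaged 2575 and 2313 FPKM (-0.16, adjusted p = 0.117). Of other cell types, 3 of 7 fibroblast markers were listed (COL1A1, DCN and LUM, summing to 3.46 to 3.79 FPKM in control and 1.56 to 1.91 FPKM in knockdown), 1 of 6 melanocyte markers (PMEL, 0.822 to 0.968 and 0.651 to 0.838 FPKM), 1 of 6 immune markers (CD14, 0.172 to 0.557 and 0.0467 to 0.261 FPKM) and 2 of 4 endothelial markers (VWF and CDH5, 0.269 to 0.401 and 0.424 to 0.484 FPKM). Single markers within these sums moved in different directions. LUM fell from a mean of 2.21 to 0.268 FPKM (-1.34, limma adjusted p = 6.40e-06). COL1A1 averaged 1.24 and 1.44 FPKM (0.13, limma adjusted p = 0.237) and PMEL also did not pass (-0.13, limma adjusted p = 0.184). Below the filter, VWF averaged 0.142 FPKM in control and 0.423 FPKM in knockdown, CDH5 0.179 and 0.0359, DCN 0.207 and 0.0426 and CD14 0.416 and 0.155. The part of these markers in the results was not tested.

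Repair genes moved in both directions, and the share that moved was near that of all genes. Of the 52 genes, 51 passed the filter of a mean of 0.5 FPKM and were tested with limma on log2(FPKM + 1), with p-values adjusted over all 11214 genes tested. There were 27 genes past an adjusted p of 0.05, or 52.9%, against 57.4% of all genes tested. In knockdown 16 were higher (31.4%, against 29.5% of all genes) and 11 were lower (21.6%, against 27.8%), and the median change was 0.03 against 0.01 for all genes. RAD50, 1 of the 16, passed the filter only through its knockdown libraries. For 30 of the 51 all knockdown libraries lay on 1 side of all controls, against 65.1% of all genes. All 27 called genes were among those 30. The changes of the called genes measured 0.27 to 0.63 upwards and 0.20 to 0.70 downwards on the log2(FPKM + 1) scale, so none reached 2-fold on that scale. The other 24 changed by between -0.13 and 0.27 and did not pass. In bulk RNA a change in the share of cells that express a gene and a change in RNA per cell cannot be told apart.

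**Figure D1:**
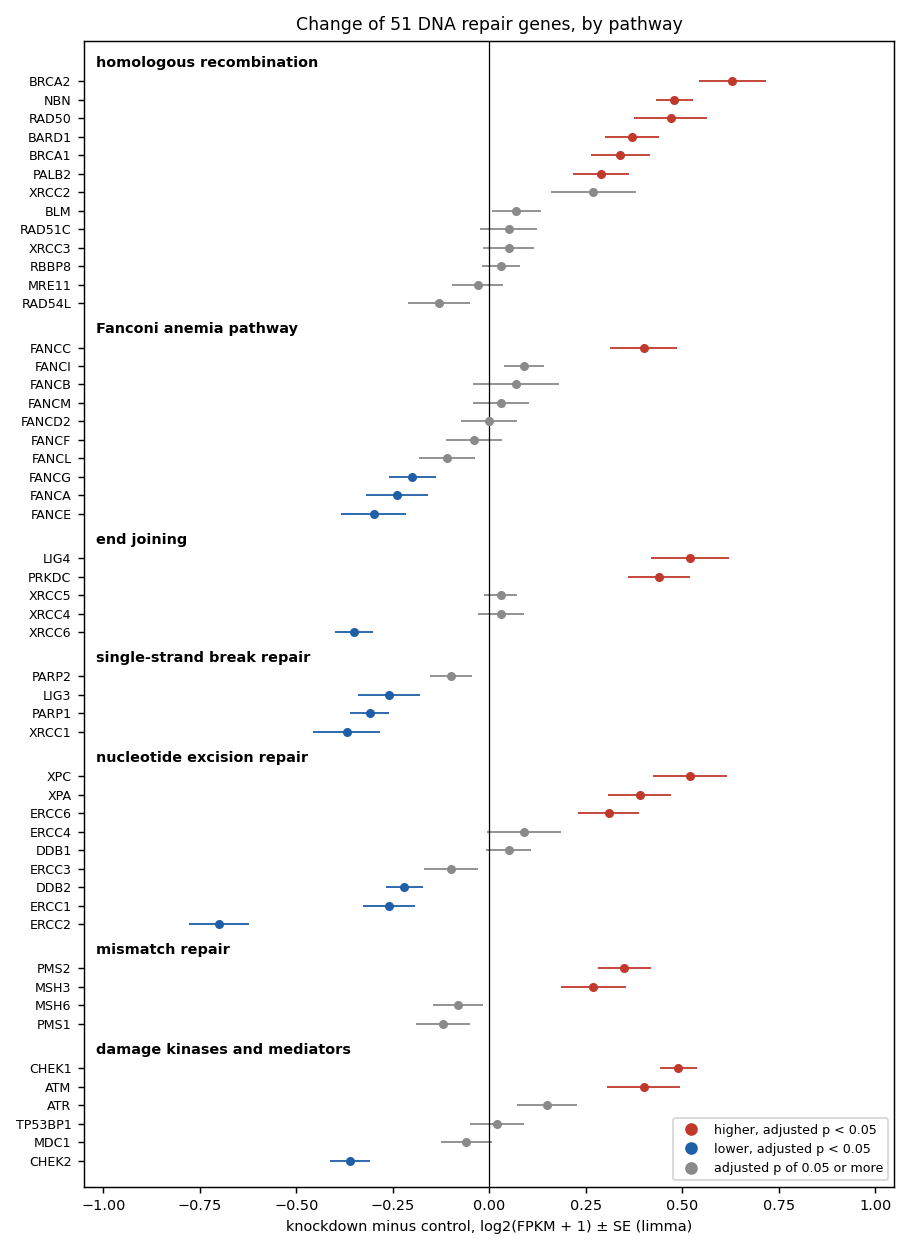
Change of each of the 51 tested repair genes by pathway, as knockdown minus control on log2(FPKM + 1) with its limma SE; red points are higher and blue points lower at an adjusted p under 0.05, grey points did not pass. Recombination holds 6 red and 0 blue points and single-strand break repair 0 red and 3 blue, while the other pathways with blue points also hold red ones.

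Promoter windows of the repair genes were read for stretches that resemble binding sites of E2F, the factor family of S phase genes, because recombination and mismatch repair genes are often counted among its targets. RefSeq windows (GRCh38.p14, 250 bases before to 50 after a transcript's start) were found for 48 of the 52 genes, 68 windows in all, and windows of the same gene can overlap. The letters searched on both strands were TTTCCCGC, TTTCGCGC, TTTGCCGC and TTTGGCGC. They occurred in 10 of the 68 windows (14.7%), against 4.8% of the 14970 windows of all genes in the table that had one. By call, 5 of 25 windows of genes that rose held them (20.0%), 2 of 14 of genes that fell (14.3%) and 3 of 28 of genes that did not pass (10.7%). The matches of genes that rose were in windows of FANCC, MSH3, XPC and PMS2, and those of PMS2 lie in overlapping windows. Among recombination genes with a window, the only match was that of XRCC2, which did not pass. The recombination genes that rose and had a window, BRCA1, BRCA2, BARD1, PALB2 and RAD50, held no match. The CCAAT letters, bound by NF-Y, occurred in 44.0% of windows of genes that rose, 50.0% of those that fell and 42.9% of those that did not pass, against 34.9% of the windows of all genes in the table. The sequences shown are the windows of the called genes that had an E2F-like match and a sole RefSeq window, 2 genes that rose and 2 that fell, so that both directions can be read side by side. Each runs 5′ to 3′ on the gene's strand with the match in capitals, and the first transcribed base is at position 251. XPC (chr3:14178552-14178851, minus strand) has its match at position 10, FANCA (chr16:89816598-89816897, minus strand) at position 79, and XRCC6 (chr22:41621045-41621344, plus strand) at position 293, inside the transcript. MSH3 (chr5:80654402-80654701, plus strand) has matches on opposite strands at positions 144 and 148 that overlap.
XPC: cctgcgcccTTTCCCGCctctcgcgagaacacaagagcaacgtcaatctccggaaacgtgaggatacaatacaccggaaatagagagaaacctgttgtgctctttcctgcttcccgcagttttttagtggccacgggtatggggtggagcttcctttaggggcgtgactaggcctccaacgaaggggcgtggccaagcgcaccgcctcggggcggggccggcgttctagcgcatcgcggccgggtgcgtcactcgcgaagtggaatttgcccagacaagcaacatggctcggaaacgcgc
MSH3: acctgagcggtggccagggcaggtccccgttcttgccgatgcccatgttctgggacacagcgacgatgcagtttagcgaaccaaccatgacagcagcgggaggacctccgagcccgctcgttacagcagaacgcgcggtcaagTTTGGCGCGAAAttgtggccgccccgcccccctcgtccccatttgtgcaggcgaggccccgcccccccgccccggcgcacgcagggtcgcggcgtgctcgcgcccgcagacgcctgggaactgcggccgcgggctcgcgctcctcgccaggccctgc
FANCA: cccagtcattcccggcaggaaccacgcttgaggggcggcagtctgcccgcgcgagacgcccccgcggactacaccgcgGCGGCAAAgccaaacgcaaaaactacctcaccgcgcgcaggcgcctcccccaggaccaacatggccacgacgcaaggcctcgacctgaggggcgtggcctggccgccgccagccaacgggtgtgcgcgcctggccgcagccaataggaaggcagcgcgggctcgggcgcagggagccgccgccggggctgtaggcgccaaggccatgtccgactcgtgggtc
XRCC6: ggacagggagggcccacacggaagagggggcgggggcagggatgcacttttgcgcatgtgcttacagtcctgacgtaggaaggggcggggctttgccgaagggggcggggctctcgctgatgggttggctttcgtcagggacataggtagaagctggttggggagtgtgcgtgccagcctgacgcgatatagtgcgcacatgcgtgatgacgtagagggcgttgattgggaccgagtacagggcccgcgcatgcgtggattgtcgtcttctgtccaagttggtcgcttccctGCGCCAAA
A match describes these letters and does not show a bound site.

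In homologous recombination 6 of 13 genes rose (46.2%, against 29.5% of all genes) and 0 fell by limma (against 27.8%), with a median change of 0.27 against 0.01 for all genes. The difference from all genes was not tested, here or in the other pathways. At an unadjusted p under 0.05 0 fell too, and voom on recovered reads called 0 lower. BRCA2, a central mediator of recombination at resected DNA (ENSG00000139618, chr13:32315474-32400266, GRCh38), was at 2.40, 2.61 and 2.64 FPKM in control and at 4.19, 5.19 and 4.15 FPKM in knockdown. Every knockdown library lay above every control library and replicate 2 was the highest. The ratio of means was 1.77-fold, and the log2(FPKM + 1) change was 0.63 (SE 0.086, adjusted p = 1.81e-04). On that scale this was the largest rise among the 51 tested genes. NBN, the NBS1 subunit of the MRE11 complex that senses broken ends, was at 14.1, 13.8 and 14.4 FPKM in control and 19.8, 20.8 and 19.8 FPKM in knockdown. Its libraries were tight within each group and did not overlap between them (1.43-fold, log2 change 0.48, SE 0.049, adjusted p = 2.70e-05). RAD50, the ATPase subunit of the same complex, was at 0.267, 0.422 and 0.303 FPKM in control and 0.648, 1.03 and 0.842 FPKM in knockdown. RAD50 was the lowest expressed of the 51 tested genes and its ratio was 2.54-fold, with a log2(FPKM + 1) change of 0.47 (SE 0.095, adjusted p = 0.00214), since the added 1 compresses low values. Its control mean of 0.331 FPKM lay below the filter of 0.5 FPKM, and it was tested only through its knockdown mean of 0.841 FPKM. Its place among the 6 that rose therefore depends in part on that filter. In GENCODE 79.7% of RAD50's exon bases are shared with another coding gene model on the same strand, AC116366.3, so the level of RAD50 is uncertain.

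BRCA1, BARD1 and PALB2 were the other recombination genes that rose. BRCA1, the ubiquitin ligase that promotes end resection, averaged 9.50 ± 0.848 FPKM in control and 12.3 ± 1.02 FPKM in knockdown (SD, n = 3 each), a log2 change of 0.34 (SE 0.076, limma adjusted p = 0.00362). Its partner BARD1 averaged 4.09 ± 0.163 and 5.57 ± 0.433 FPKM (0.37, SE 0.071, limma adjusted p = 0.00148). PALB2, the bridge between BRCA1 and BRCA2, averaged 5.90 ± 0.419 and 7.47 ± 0.561 FPKM (0.29, SE 0.073, limma adjusted p = 0.00618). In none of the 3 did the groups overlap. With the trends of length and GC content removed, as described below, all 3 stayed called with smaller changes. BRCA1 was then close to the threshold (0.16, limma adjusted p = 0.0484), with BARD1 at 0.19 (limma adjusted p = 0.016) and PALB2 at 0.22 (limma adjusted p = 0.0142).

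The nuclease subunit of the MRE11 complex did not pass, unlike its partners. MRE11 was at 9.79, 9.87 and 10.1 FPKM in control and 8.84, 10.6 and 9.77 FPKM in knockdown, with overlapping groups and a change of -0.03 (SE 0.066, adjusted p = 0.725). The ratio of NBN to MRE11 was 1.44, 1.40 and 1.43 in control and 2.24, 1.97 and 2.02 in knockdown, without overlap. With the trends of length and GC content removed, as described below, MRE11 was called lower (-0.23, adjusted p = 0.00419). The other recombination genes did not pass: the recombination cofactors RAD51C (0.05), XRCC2 (0.27, adjusted p = 0.059) and XRCC3 (0.05), the translocase RAD54L (-0.13), the resection factor RBBP8 (0.03) and the helicase BLM (0.07). XRCC2 passed on the common sum (adjusted p = 0.0106), with voom (adjusted p = 0.0388) and without knockdown replicate 1 (adjusted p = 0.0078). XRCC3 shares 76.7% of its exon bases with KLC1 and RAD54L 25.1% with LRRC41, each on the opposite strand, and whether counting used strand is not given in the sources used here.

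In the Fanconi pathway 1 of 10 genes rose (10%, against 29.5% of all genes) and 3 fell (30%, near the 27.8% of all genes), with a median change of -0.02. FANCC, a subunit of the core ubiquitin ligase complex, was at 2.51, 2.48 and 2.94 FPKM in control and 3.54, 4.29 and 3.60 FPKM in knockdown (1.44-fold, log2 change 0.40, SE 0.086, adjusted p = 0.00282). Its core complex partners FANCE, FANCA and FANCG moved the opposite way. FANCE was at 6.76, 6.79 and 5.64 FPKM in control and 5.48, 4.75 and 4.77 FPKM in knockdown (-0.30, SE 0.083, adjusted p = 0.0108). FANCA was at 4.35, 4.07 and 4.39 FPKM in control and 3.33, 3.95 and 3.17 FPKM in knockdown (-0.24, SE 0.080, adjusted p = 0.028). FANCG was at 14.5, 13.6 and 13.2 FPKM in control and 12.6, 11.2 and 11.9 FPKM in knockdown (-0.20, SE 0.061, adjusted p = 0.019). In all 3 the groups were separate but close, with the nearest control and knockdown libraries less than 1 FPKM apart. None of the 3 was called when libraries were scaled to a common sum (adjusted p 0.13 to 0.584), and leaving out control replicate 1 left 1 of the 3, with FANCA at an adjusted p of 0.0821 and FANCG at 0.0867. FANCA also lost its call without control replicate 3, knockdown replicate 1 or knockdown replicate 3 (adjusted p 0.0762 to 0.0974), and 23.6% of its exon bases are shared with ZNF276 on the opposite strand. The pair that the core complex ubiquitinates did not pass: FANCD2 averaged 2.95 ± 0.152 FPKM in control and 2.96 ± 0.203 FPKM in knockdown (SD, n = 3 each; 0.00, limma adjusted p = 0.984), and FANCI averaged 11.7 ± 0.275 and 12.5 ± 0.451 FPKM (0.09, limma adjusted p = 0.152). The subunits FANCB (0.07), FANCF (-0.04) and FANCL (-0.11) and the helicase FANCM (0.03) did not pass. Without knockdown replicate 1 FANCL was called lower (-0.18, limma adjusted p = 0.0337). FANCL shares 18.7% of its exon bases with VRK2 on the opposite strand.

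Of 5 end joining genes 2 rose (40%) and 1 fell (20%), against 29.5% and 27.8% of all genes. DNA-dependent protein kinase consists of the Ku heterodimer, encoded by XRCC5 and XRCC6, and the catalytic subunit PRKDC. XRCC6 (ENSG00000196419, chr22:41621119-41664048, GRCh38), the most abundant of the 52 transcripts, was at 176, 179 and 176 FPKM in control and 145, 131 and 139 FPKM in knockdown. All knockdown libraries were lower (1.28-fold, log2 change -0.35, SE 0.049, adjusted p = 2.14e-04). XRCC5 was at 68.3, 68.9 and 66.6 FPKM in control and 70.6, 70.6 and 67.2 FPKM in knockdown, overlapping (0.03, SE 0.043, adjusted p = 0.564). The ratio of XRCC5 to XRCC6 was accordingly 0.389, 0.386 and 0.379 in control and 0.486, 0.539 and 0.483 in knockdown. PRKDC was at 17.2, 17.3 and 17.5 FPKM in control and rose to 22.0, 27.9 and 22.0 FPKM in knockdown (1.38-fold, 0.44, SE 0.081, adjusted p = 0.00124). Its highest value was in knockdown replicate 2, and the call held without that library (adjusted p = 9.40e-05). LIG4, the ligase of the pathway, was at 4.96, 4.34 and 3.90 FPKM in control and 6.15, 7.88 and 6.18 FPKM in knockdown (1.53-fold, 0.52, SE 0.101, adjusted p = 0.00166), again highest in replicate 2. Its scaffold XRCC4 averaged 11.0 ± 0.416 and 11.2 ± 0.667 FPKM (SD, n = 3 each; limma adjusted p = 0.687). XRCC6 has 5 named pseudogenes in GENCODE, and how reads shared with them were counted is not given in the sources used here.

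In single-strand break repair 3 of 4 genes fell (75%, against 27.8% of all genes) and 0 rose by limma (against 29.5%), also at an unadjusted p under 0.05 or with voom, and the median change was -0.28. XRCC1, the scaffold of this route, was at 7.53, 7.81 and 7.56 FPKM in control and 6.03, 4.75 and 6.30 FPKM in knockdown (-0.37, SE 0.088, adjusted p = 0.00452), lowest in replicate 2. PARP1, which detects nicks and makes poly(ADP-ribose), was at 16.1, 15.8 and 16.2 FPKM in control and 12.2, 13.4 and 12.6 FPKM in knockdown (-0.31, SE 0.051, adjusted p = 6.17e-04). LIG3, the ligase bound to XRCC1, was at 3.76, 3.77 and 3.40 FPKM in control and 2.59, 3.23 and 2.85 FPKM in knockdown (-0.26, SE 0.080, adjusted p = 0.0186). In each of these genes all knockdown libraries lay below all controls. PARP2, the relative of PARP1, was also separate between the groups, at 16.3, 14.6 and 15.6 FPKM against 14.5, 14.2 and 14.3 FPKM, but did not pass (-0.10, adjusted p = 0.128). Scaled to a common sum, XRCC1 kept its call (-0.23, adjusted p = 0.0305) while PARP1 (-0.15, adjusted p = 0.0572) and LIG3 (-0.13, adjusted p = 0.244) did not. LIG3 lost its call without control replicate 1, control replicate 2 or knockdown replicate 1 (adjusted p 0.0643 to 0.0668) and shares 29.1% of its exon bases with RFFL on the opposite strand.

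**Figure D2:**
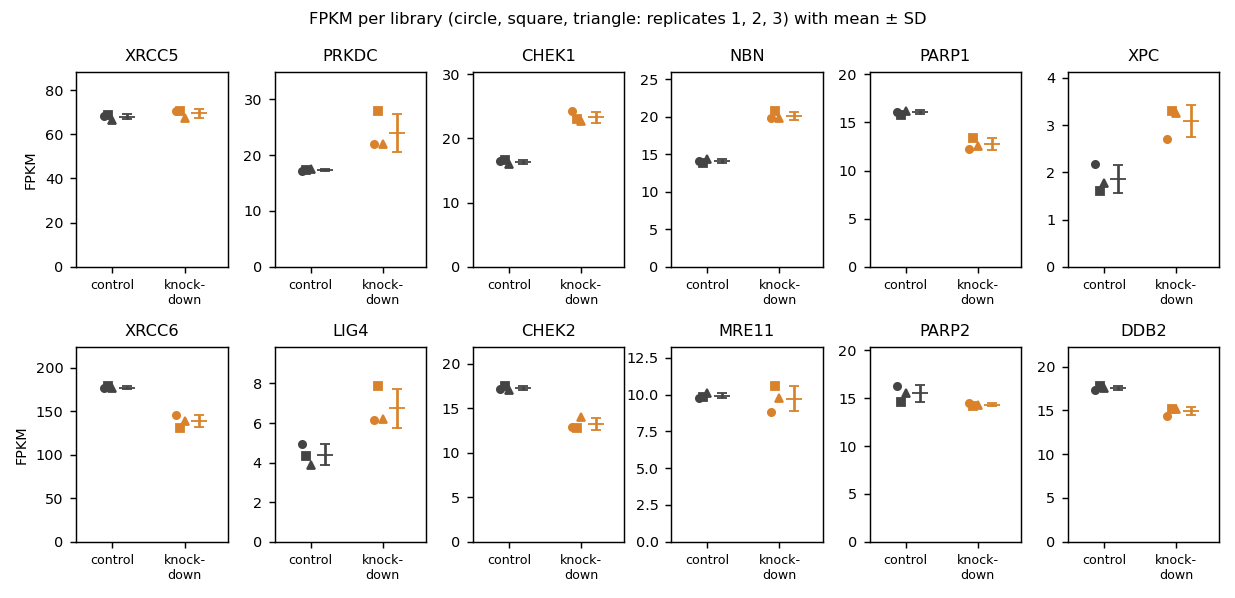
FPKM of 12 repair genes in each library, controls in grey and knockdown in orange, with the mean and SD of 3 libraries; each axis starts at 0, and genes of the same complex or route stand in pairs. XRCC6 fell to 131 to 145 FPKM while XRCC5 overlapped, CHEK1 and CHEK2 lay on opposite sides of their controls, and NBN rose while MRE11 overlapped.

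In nucleotide excision repair 3 of 9 tested genes were higher and 3 lower, 33.3% each and near the 29.5% and 27.8% of all genes, with a median change of 0.05. The damage sensors went different ways. XPC, which finds distorted DNA across the genome (ENSG00000154767, chr3:14145147-14178783, GRCh38), was at 2.18, 1.60 and 1.78 FPKM in control and 2.70, 3.30 and 3.25 FPKM in knockdown (1.67-fold, log2 change 0.52, SE 0.095, adjusted p = 0.00111). DDB2, the subunit that recognises ultraviolet photoproducts and hands them to XPC, was at 17.3, 17.8 and 17.5 FPKM in control and 14.4, 15.2 and 15.1 FPKM in knockdown (-0.22, SE 0.048, adjusted p = 0.00335). Both genes had separate groups. Scaled to a common sum, XPC kept its call (0.64, limma adjusted p = 3.01e-04) but DDB2 did not (-0.06, limma adjusted p = 0.392). Its partner DDB1 did not pass (0.05, adjusted p = 0.449), and the ratio of DDB1 to DDB2 was 1.14, 1.07 and 1.11 in control and 1.37, 1.43 and 1.24 in knockdown.

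Downstream of damage recognition the same mixture appeared. XPA, which verifies the lesion, was at 11.4, 13.1 and 14.8 FPKM in control and 17.8, 17.6 and 16.8 FPKM in knockdown (1.33-fold, 0.39, SE 0.081, adjusted p = 0.00221). ERCC6, the CSB protein that starts repair at stalled RNA polymerase, was at 1.03, 0.904 and 1.07 FPKM in control and 1.43, 1.64 and 1.36 FPKM in knockdown (1.48-fold, 0.31, SE 0.079, adjusted p = 0.00707). Both were separate between groups, but ERCC6 lost its call when the length trend was removed (0.10, adjusted p = 0.256). ERCC2, the XPD helicase of TFIIH (ENSG00000104884, chr19:45349837-45370918, GRCh38), had the largest fall of the 51 genes. It was at 4.39, 3.85 and 4.03 FPKM in control and 2.22, 1.91 and 2.26 FPKM in knockdown (1.92-fold lower, -0.70, SE 0.077, adjusted p = 4.83e-05). ERCC3, the other TFIIH helicase, averaged 8.44 ± 0.320 and 7.81 ± 0.709 FPKM (SD, n = 3 each) and did not pass (-0.10, limma adjusted p = 0.237). ERCC1, of the nuclease that cuts 5′ of the lesion, was at 8.86, 9.13 and 9.50 FPKM in control and 7.78, 6.80 and 7.94 FPKM in knockdown (-0.26, SE 0.068, adjusted p = 0.00818), while its catalytic partner ERCC4 averaged 0.850 ± 0.0902 and 0.973 ± 0.222 FPKM (SD, n = 3 each; limma adjusted p = 0.447). The knockdown values of both called genes lay below all controls, and 28.6% of ERCC1's exon bases are shared with CD3EAP on the opposite strand. On the common sum ERCC1 lost its call (-0.11, limma adjusted p = 0.178). ERCC5, the nuclease that cuts 3′ of the lesion, stood below the filter at 0.416, 0.365 and 0.348 FPKM in control and 0.683, 0.567 and 0.435 FPKM in knockdown, with 63.2% of its exon bases shared with the readthrough gene BIVM-ERCC5.

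In mismatch repair 2 of 4 genes rose (50%, against 29.5% of all genes) and 0 fell by limma (against 27.8%), also at an unadjusted p under 0.05 or with voom, with a median change of 0.09. PMS2, a nuclease subunit of the pathway, was at 3.86, 4.08 and 4.30 FPKM in control and 5.57, 5.70 and 5.10 FPKM in knockdown (1.34-fold, 0.35, SE 0.069, adjusted p = 0.0018). MSH3, which recognises larger loops, was at 3.53, 4.52 and 4.37 FPKM in control and 4.89, 5.29 and 5.35 FPKM in knockdown (1.25-fold, 0.27, SE 0.085, adjusted p = 0.0201). The groups of both genes were separate, but MSH3 lost its call without control replicate 1 (adjusted p = 0.0812) or knockdown replicate 3 (adjusted p = 0.0587). MSH6, which recognises single-base mismatches, averaged 8.35 ± 0.443 and 7.82 ± 0.465 FPKM (SD, n = 3 each; -0.08, limma adjusted p = 0.286), and PMS1 changed by -0.12 (adjusted p = 0.169). With the length and GC trends removed MSH6 (-0.30, adjusted p = 0.00128) and PMS1 (-0.26, adjusted p = 0.01) were called lower. MSH6 shares 16.2% of its exon bases with FBXO11 on the opposite strand. PMS2 has 11 named pseudogene or pseudogene-like copies in GENCODE, so its level is uncertain.

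Of the 6 kinases and mediators 2 rose (33.3%) and 1 fell (16.7%), against 29.5% and 27.8% of all genes, and the checkpoint kinases moved in opposite directions. CHEK1, the kinase that ATR activates at stalled forks (ENSG00000149554, chr11:125625136-125676255, GRCh38), was at 16.5, 16.6 and 16.0 FPKM in control and 24.3, 23.0 and 22.7 FPKM in knockdown (1.43-fold, 0.49, SE 0.048, adjusted p = 2.53e-05). CHEK2, the kinase that ATM activates at breaks (ENSG00000183765, chr22:28687743-28742422, GRCh38), was at 17.2, 17.5 and 17.0 FPKM in control and 12.9, 12.8 and 14.0 FPKM in knockdown (1.30-fold lower, -0.36, SE 0.052, adjusted p = 2.82e-04). The control levels of both were alike, and neither gene's groups overlapped. ATM itself was at 1.07, 1.15 and 1.14 FPKM in control and 1.72, 2.19 and 1.50 FPKM in knockdown (1.61-fold, 0.40, SE 0.095, adjusted p = 0.00524), highest in replicate 2, and it lost its call when the length trend was removed (0.15, adjusted p = 0.119). ATR was at 2.23, 2.30 and 2.29 FPKM in control and 2.44, 2.97 and 2.47 FPKM in knockdown, separate but not past the threshold (0.15, SE 0.078, adjusted p = 0.137). It passed on the common sum (0.26, limma adjusted p = 0.0265) and with voom (0.21, voom adjusted p = 0.0329). The mediators that gather at breaks did not pass: TP53BP1 averaged 3.92 ± 0.198 and 3.99 ± 0.278 FPKM (SD, n = 3 each; limma adjusted p = 0.827) and MDC1 averaged 7.16 ± 0.551 and 6.81 ± 0.202 FPKM (limma adjusted p = 0.456). CHEK2 has 4 named pseudogenes in GENCODE, and TP53BP1 shares 28.7% of its exon bases with TUBGCP4 on the opposite strand.

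Library by library, the called genes kept to their side. In 13 of the 16 genes that rose, knockdown replicate 2 was the highest knockdown library, against 4 of the 11 that fell and 31 of all 51. Without that library the test again called 16 genes higher and 11 lower.

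**Figure D3:**
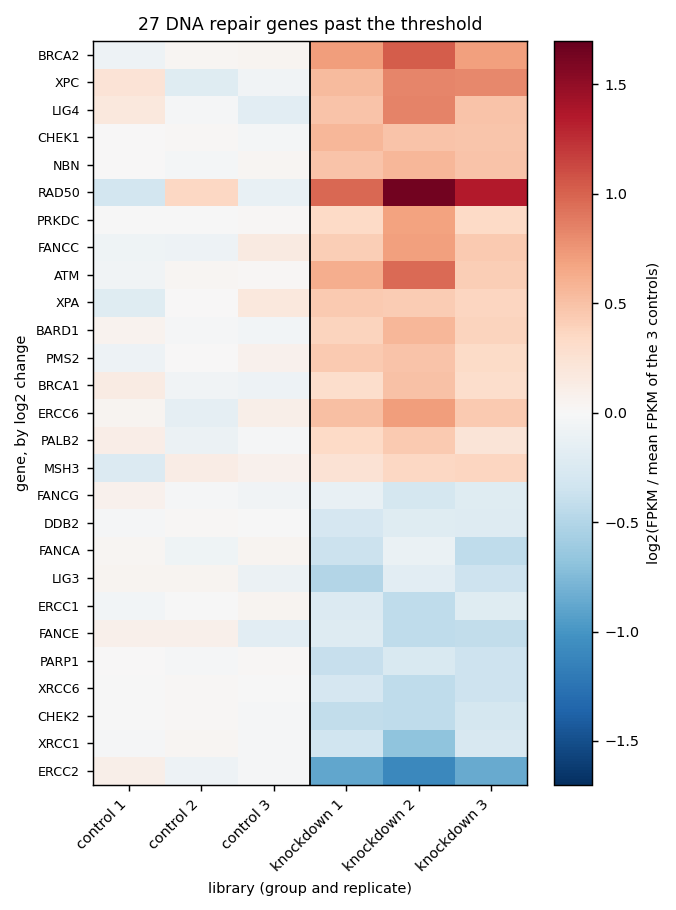
The 27 called repair genes in each library, coloured by log2 of FPKM over the mean of the 3 controls and ordered by their change on log2(FPKM + 1). The knockdown columns are red for the upper 16 genes and blue for the lower 11, with the darkest red in replicate 2 for RAD50.

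Genes that rose and genes that fell differed in median base composition. The longest transcripts of the 16 that rose had a median GC content of 41.7%, those of the 11 that fell 55.4% and those of the 24 that did not pass 41.7%. Across genes, which are not independent replicates, the change correlated with GC content at -0.57 over the 51 repair genes and at -0.30 over 11209 genes with an annotation. With log2 exon length the correlation was 0.25 and 0.26. Over all genes the median change ran from 0.19 in the lowest to -0.17 in the highest of 10 equal bins of GC content, and from -0.19 in the shortest to 0.18 in the longest of 10 bins of exon length. Knockdown replicate 2 differed from the other knockdown libraries along the same properties, by 0.12 to -0.12 over GC content and -0.14 to 0.12 over length. The points share libraries and the part of these trends in the results was not tested beyond their removal.

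**Figure D4:**
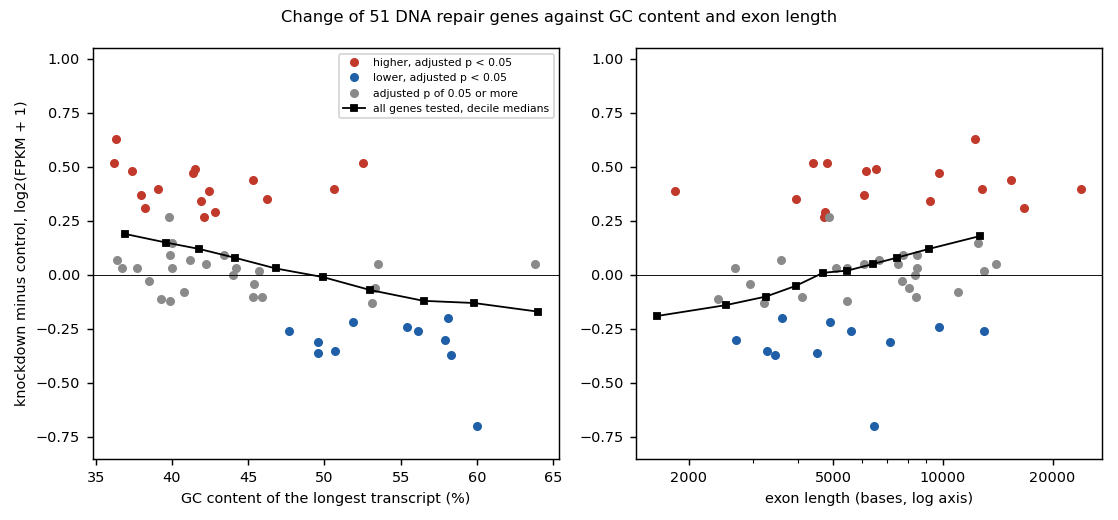
Change of the 51 repair genes on log2(FPKM + 1) against the GC content of the longest transcript (left) and exon length in bases on a log axis (right); the black line gives medians of 10 equal bins of all genes tested. Genes that rose lie mostly left and genes that fell right in the left panel (medians 41.7% and 55.4% GC).

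When a smooth trend of length was removed from every library, 14 repair genes were called higher and 12 lower, against 28.0% and 28.7% of all genes. Of the 16 genes that rose, 14 remained called; ATM and ERCC6 did not. Of the 11 that fell, 9 remained; FANCE and FANCG did not. With the trends of both length and GC content removed, 13 were called higher (25.5%, against 27.1% of all genes) and 14 lower (27.5%, against 28.0%). Of the earlier calls 13 of the 16 and 9 of the 11 remained, MSH3 being the further loss, and the median of the repair genes was -0.06 against -0.01 for all genes. The libraries also differed in their FPKM sums, 271372 to 274709 in control and 234624 to 248082 in knockdown. Scaled to a common sum, all genes shifted from a median of 0.01 to 0.14 and the repair genes from 0.03 to 0.18. On that scale 25 repair genes were called higher and 4 lower, against 43.4% and 16.4% of all genes, so the split of calls depends on the scaling. All 16 genes that rose and, of those that fell, XRCC6, XRCC1, ERCC2 and CHEK2 remained called. By pathway the common sum gave 10 of 13 recombination genes higher and 0 lower, 4 of 5 end joining genes higher and 1 lower, and 0 of 4 single-strand break genes higher and 1 lower. The 16 genes that rose and the 11 that fell kept their sign in all 17 alternatives or in those that tested them. Past the threshold in each of these were 13 of the 16 and 4 of the 11.

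**Figure D5:**
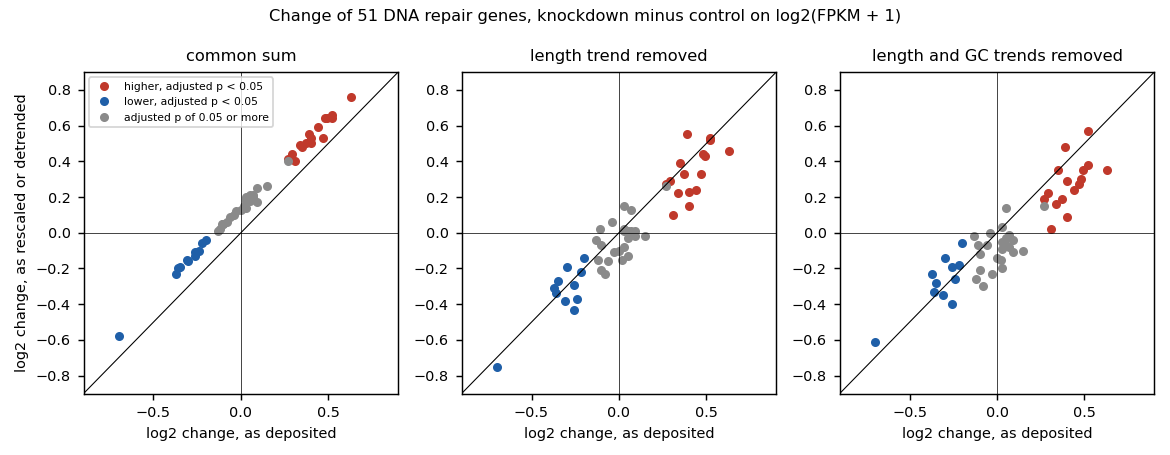
Change of the 51 repair genes after scaling to a common sum (left), removing the length trend (middle) or removing the length and GC trends (right), against the change from the FPKM as deposited; colours give the call as deposited and the diagonal marks equality. The common sum lifts the points together, to a median of 0.18, and no coloured point crosses 0 in any panel.

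Of 111 further repair genes, 108 were tested, 34 were higher (31.5%, against 29.5% of all genes) and 35 lower (32.4%, against 27.8%), with a median of 0.01. Among recombination and Fanconi genes 15 of 38 were higher (39.5%) and 11 lower (28.9%). USP1, which removes ubiquitin from FANCD2, was at 28.2, 28.1 and 29.9 FPKM in control and 48.1, 52.1 and 49.2 FPKM in knockdown (0.77, SE 0.049, adjusted p = 1.58e-06), and the helicase RECQL4 fell from a mean of 18.4 to 11.0 FPKM (-0.69, adjusted p = 5.73e-05). Among end joining, base excision and single-strand break genes 5 of 26 were higher (19.2%) and 12 lower (46.2%), with a median of -0.14. The glycosylase NTHL1 fell from 11.4 to 5.63 FPKM (-0.90, adjusted p = 5.47e-06). Among nucleotide excision repair genes 8 of 20 were higher (40%) and 7 lower (35%), with falls of the ubiquitin ligase subunit RBX1 (18.6 to 10.8 FPKM, -0.73, adjusted p = 6.20e-05) and of RPA3, the small subunit of replication protein A (12.1 to 7.03 FPKM, -0.71, adjusted p = 8.11e-06). Of 3 further mismatch repair genes 1 was higher (33.3%) and 1 lower (33.3%), with a median of -0.08. The gene that rose, MLH3 (0.25, limma adjusted p = 0.0116), lost its call when the length trend was removed (0.14, limma adjusted p = 0.116). Of 21 further damage signalling genes 5 were higher (23.8%) and 4 lower (19%), among them RIF1 (0.39, adjusted p = 6.67e-04) and ATRIP, the partner of ATR (-0.43, adjusted p = 9.33e-04). RIF1 lost its call when the length and GC trends were removed (0.09, limma adjusted p = 0.255).

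Of 25 S phase genes 2 were higher (8%, against 29.5% of all genes) and 11 lower (44%, against 27.8%), with a median of -0.14, or 2 and 16 without knockdown replicate 2. On the common sum 4 were higher and 7 lower. The licensing factor CDT1 fell from a mean of 44.2 to 22.4 FPKM (-0.95, adjusted p = 1.35e-06) and the helicase factor CDC45 from 24.0 to 16.7 FPKM (-0.50, adjusted p = 7.91e-05). Of 20 G2 and mitosis genes 11 were higher (55%) and 3 lower (15%), with a median of 0.15. Leaving out control replicate 2 or control replicate 3 gave 7 higher in each case, leaving out knockdown replicate 2 gave 10 higher and 5 lower, and removing the length and GC trends gave 9 higher and 6 lower. The kinase AURKB fell from 68.4 to 37.3 FPKM (-0.86, adjusted p = 7.30e-06), whereas HMMR, a spindle protein, rose from 20.7 to 34.5 FPKM (0.71, adjusted p = 1.83e-06). Their part in the changes of repair genes was not tested.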

How the data were processed

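Expression values were deposited by the authors as FPKM, with 1 column per library. HISAT2 2.2.1 and the build GRCh38 are named in the submitters' processing notes. No counting program, annotation or strand setting is given in the sources used here. FPKM is relative to the library total, so changes of abundant transcripts shift all other genes. Whole reads were recovered from the steps of the FPKM values for all 12829 genes (tolerance 0.004 reads) and served for depth and a voom alternative. The total implied by gene length was within 10% of the median for 85.5% of genes. For TP53BP1 it was 0.499 of the median and for PARP1, ATR and ERCC4 2.566, 2.179 and 1.874 times, so their read numbers and lengths are uncertain. Further repair genes also lay outside that 10%, among them the called genes ATM (1.635 times), PMS2 (1.583) and ERCC6 (1.380), with the same uncertainty.

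Control and knockdown (3 libraries each) were compared on log2(FPKM + 1) with R 4.3.3 and limma 3.58.1, two-sided, over the 11214 genes whose mean reached 0.5 FPKM, with a mean-variance trend and Benjamini-Hochberg adjustment over all genes tested. A fold on this scale understates changes of low genes, and ratios of mean FPKM are given separately. IQGAP2, below the filter, was added to the same model. Labels name biological replicates but not separate cultures, so p-values measure the spread between these libraries. The alternatives were the pseudocount, the filter, a common FPKM sum, quantile normalization, loess removal of length and GC trends (span 0.5), voom on recovered reads, the replicate number as a block and leaving out each library. Gene coordinates, lengths and GC content come from GENCODE v29 (GRCh38).

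The 52 genes, the other lists and the tests were chosen with earlier results of these data known. The rule for named genes took all 52, IQGAP2, 3 keratinocyte genes and, of each other list, the 2 called genes of largest change whose groups were separate. The results of 2 genes that this rule named are not reported here. Library values are given for up to 3 genes per pathway and direction with the largest change, and for some of their partners and relatives, picked after their values were seen.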

Additional observations from a re-analysis of the deposited data

How the results depend on the processing

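Low reads limit the precision of IQGAP2, with 2 to 4 reads per knockdown library, and of RAD50, with 43 reads in 1 control library. No repair gene past the threshold changed sign in any alternative. Counts of calls moved by over 1.5 times as follows. On the common sum, 25 repair genes were higher and 4 lower and 1835 genes in all were lower; recombination gave 10 higher, Fanconi genes 2 higher and 0 lower, end joining 4 higher, single-strand break repair 1 lower and excision repair 1 lower. With the length trend removed, 1 Fanconi gene was lower, 5 excision repair genes were lower, 1 mismatch gene was lower and 1 kinase was higher. With length and GC trends removed, 1 recombination gene was lower, 1 mismatch gene was higher and 2 lower, and 1 kinase was higher. A filter at a mean of 5 FPKM tests fewer genes and gave 7 higher, with 3 in recombination, 0 Fanconi, 1 excision repair, 0 mismatch and 1 kinase.

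Leaving out each library in turn gave 15 to 17 repair genes higher and 8 to 11 lower, 2779 to 3250 and 2678 to 3212 in all genes, 6 to 7 recombination genes higher, 1 to 3 Fanconi genes lower, 2 to 3 single-strand break genes lower, 1 to 2 mismatch genes higher, and an IQGAP2 change of -0.23 to -0.22.

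Signs turned for genes that did not pass, and the cause was not tested. On the common sum, RAD54L became 0.01, MRE11 0.12, FANCF 0.10, FANCL 0.05, PARP2 0.05, ERCC3 0.05, MSH6 0.06, PMS1 0.02 and MDC1 0.09. With the length trend removed, XRCC3 became -0.03, FANCF 0.06, FANCL 0.02, FANCM -0.08, FANCD2 -0.10, DDB1 -0.13 (limma adjusted p = 0.0312), ERCC4 -0.02, ATR -0.02 and TP53BP1 -0.15, the same values as with the replicate block added. With length and GC trends removed, RAD51C became -0.07, RBBP8 -0.09, BLM -0.08, FANCB -0.01, FANCF 0.00, FANCM -0.20 (limma adjusted p = 0.033), FANCD2 -0.14, FANCI -0.04, XRCC5 -0.05, DDB1 -0.03, ERCC4 -0.11, ATR -0.10 and TP53BP1 -0.15. With quantile normalization, FANCM became -0.02, FANCD2 -0.04 and TP53BP1 -0.02. Leaving out each library in turn, MRE11 ranged from -0.09 to 0.03, FANCB -0.05 to 0.13, FANCF -0.08 to 0.00, FANCM -0.01 to 0.06, FANCD2 -0.04 to 0.03, XRCC4 -0.00 to 0.07, DDB1 -0.00 to 0.10 and TP53BP1 -0.02 to 0.06.

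The correlation of deviations between same-numbered libraries was -0.07, -0.04 and 0.02, and between differently numbered libraries of the groups -0.04 to 0.08. No pairing by replicate number was visible in these values. They cannot show whether same-numbered libraries were handled together, which the labels do not say. With the replicate number as a block, 16 repair genes were higher and 11 lower, and 3167 and 3024 of all genes. The block with the length trend removed gave 14 higher and 11 lower, with 1 mismatch gene lower and 1 kinase higher.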
